A study of Mus musculus with 30 samples.

Results

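The 43 genes described here encode the working parts of the lysosome and of autophagy, and they were measured in mouse retinal pigment epithelium (RPE) across 1 day and night. They were chosen by symbol, as the entries of the deposited expression table that carry the name of a member, and all 43 were found among its 51904 gene entries. RNA was sequenced from the RPE of 30 C57BL/6 mice, all male, wild type and between 10 and 13 weeks of age. They were sampled at 6 zeitgeber times (ZT), 5 mice per time: ZT0, ZT2, ZT4, ZT9, ZT14 and ZT19, at clock hours 7, 9, 11, 16, 21 and 2. Each sample is 1 eye of 1 mouse. Left and right eyes were spread unevenly over the times: all ZT4 samples and most ZT14 samples were left eyes, and most ZT2 and ZT19 samples were right eyes. No mouse was treated or carried an altered allele. The retina and the front of the eye were taken off, and clumps of RPE were lifted from the choroid of the stored eyecup, so each sample is bulk tissue. By convention ZT0 is lights-on, so ZT2, ZT4 and ZT9 fall in the day and ZT14 and ZT19 in the night.

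The lysosome is an acid compartment in which proteases, lipases and glycosidases break down material delivered by endocytosis, phagocytosis and autophagy. Proton pumps in its membrane keep it acid, and the transcription factors TFEB and TFE3 activate many of its genes. In the eye the RPE takes up the shed tips of photoreceptor outer segments every day, with a burst soon after light onset, and digests them in phagosomes that fuse with lysosomes. Part of this uptake uses LC3-associated phagocytosis, in which components of the autophagy machinery attach ATG8 proteins such as LC3 to the phagosome membrane and in which the protein Rubicon, encoded by Rubcn, takes part. Whether transcripts of this machinery follow the daily cycle is the question the 6 times address.

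Because TFEB is known to bind DNA with the core CACGTG, the stretches before the start sites of 3 members are shown first, chosen because each of these genes followed a tissue marker score in the results and because they differ in this core. They are the 250 bases before the start of Lamp1 (chr8:13158911-13159160, plus strand), Ctss (chr3:95526536-95526785, plus strand) and Ctsk (chr3:95498960-95499209, plus strand), from RefSeq on GRCm38.p6, 5′ to 3′. Capitals mark CACGTG and its longer forms TCACGTGA and GTCACGTG on either strand, both of which contain the core.
Lamp1: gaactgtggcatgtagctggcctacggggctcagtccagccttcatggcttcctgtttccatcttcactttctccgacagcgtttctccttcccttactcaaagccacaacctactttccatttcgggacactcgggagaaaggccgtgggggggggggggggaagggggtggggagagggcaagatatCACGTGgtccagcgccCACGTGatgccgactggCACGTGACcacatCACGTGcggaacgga
Ctss: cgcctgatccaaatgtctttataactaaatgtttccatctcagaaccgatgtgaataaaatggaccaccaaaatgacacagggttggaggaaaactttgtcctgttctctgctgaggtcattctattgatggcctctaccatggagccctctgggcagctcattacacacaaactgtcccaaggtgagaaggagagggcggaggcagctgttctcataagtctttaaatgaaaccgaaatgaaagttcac
Ctsk: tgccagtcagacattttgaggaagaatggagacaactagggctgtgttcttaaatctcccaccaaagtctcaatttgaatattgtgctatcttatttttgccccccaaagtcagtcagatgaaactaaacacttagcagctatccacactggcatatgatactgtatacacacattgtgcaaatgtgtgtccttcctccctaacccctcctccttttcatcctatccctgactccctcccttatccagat
Lamp1, a glycoprotein of the lysosome membrane, held the core 4 times, with first bases at positions -61, -45, -28 and -15 from its start. Neither Ctss nor Ctsk, both cysteine proteases, held it in its window.

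RefSeq windows of 250 bases before to 50 after the start were matched by symbol for 35 of the 43 genes. The core CACGTG was present in 12 of the 35 (34.3%), against 8.09% of 27025 genes with such a window and 11.1% of the 11866 that were expressed above the filter described later. TCACGTGA was present in 6 (17.1%), against 1.96% of the expressed genes, and GTCACGTG in 8 (22.9%), against 4.43%. Among 89 further genes of the pathway with a window, 19 (21.3%) held the core. Matches to these letters are a description of the sequence and do not show that a factor binds there. Sites of 5 more genes are shown, which are the members with both 8-base forms in a window and span the enzyme, membrane and pump groups. They are given as up to 28 bases on the gene's strand with the core in capitals and the position of its first base.
Ctsd (chr7:142388056-142388077, minus strand, position -245): tccccCACGTGacctgtatcca
Ctsd (chr7:142387909-142387936, minus strand, position -98): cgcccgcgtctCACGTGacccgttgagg
Ctsa (chr2:164833750-164833777, plus strand, position -12): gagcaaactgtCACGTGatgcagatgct
Gla (chrX:134601183-134601210, minus strand, position -194): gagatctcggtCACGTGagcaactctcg
Mcoln1 (chr8:3500463-3500490, plus strand, position -45): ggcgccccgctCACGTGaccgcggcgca
Atp6v0d1 (chr8:105566051-105566078, minus strand, position -3): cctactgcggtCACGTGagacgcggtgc
The other members with the core, Lamp1, Atg5, Atg7, Atp6v1a, Ctsl, Glb1 and Rubcn, did not hold both 8-base forms. Where transcripts start at several places the annotations differ: in GENCODE M21 the second Ctsd site and those of Ctsa and Mcoln1 fall in a UTR of the gene, and the first Ctsd site and those of Gla and Atp6v0d1 lie outside it. The Gla site lies within the neighbouring gene Hnrnph2. The sites of Atg7, Atp6v1a and Rubcn, which are counted in the shares above but not shown, fall in introns of these genes. Ctsa, Gla and Mcoln1 held the core 2 times each. None of the windows matched for the ATG8 genes, Sqstm1 or the transcription factor genes held it.

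The tissue label was checked against markers of the RPE. Of 8 RPE marker genes, 7 were abundant, with median levels of 934 FPKM for Rpe65, 2405 FPKM for Rgr and 4251 FPKM for Ttr, where FPKM are fragments scaled by transcript length and by sequencing depth. The chloride channel gene Best1 was the exception, with a median of 0.607 FPKM. Transcripts of other eye tissues were present in every sample, and those of several tissues varied by a wider ratio than the RPE markers: the summed level of 9 surface epithelium (corneal and conjunctival) markers ranged from 1922 to 16886 FPKM, that of 8 fast muscle markers from 1769 to 20667 FPKM, that of 8 rod markers from 24.0 to 10537 FPKM and that of 6 myelin markers from 83.2 to 11013 FPKM. The sum of 8 endothelium markers, for which no slopes were fitted, ranged from 150 to 641 FPKM. The summed RPE markers ranged from 4787 to 16975 FPKM, 9 immune markers from 201 to 706 FPKM and 8 stromal markers from 1104 to 2838 FPKM. The sample ZT14 replicate 3 stood apart, with 12754 genes above 0 against 16723 to 19374 in the other samples, and values that it moves by more than 1.5 times are given with and without it. Depth was estimated from the step between low values as 12.4 to 23.2 M reads per sample (M: mega), which is not a deposited count.

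All 43 genes were expressed above 0 in all 30 samples, and all passed the filter of at least 1 FPKM in at least 5 samples that 16741 genes passed. The proteases Ctsd and Ctsl and the saposin precursor gene Psap were the most abundant. The median of the 43 medians was 71.4 FPKM, against 9.77 FPKM over all genes that passed. By median level 24 of the 43 were in the top 10% of those genes and all 43 in the upper 50%. Levels in FPKM are scaled by length and can be compared between genes, although one value pools all transcripts of a gene.

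Ctsd, which encodes cathepsin D, the main aspartic protease of the lysosome (GENCODE M21, chr7:142375911-142388038, minus strand), had the highest level, with a lowest, median and highest value of 662, 976 and 1321 FPKM over the 30 samples. Psap, whose product prosaposin is cut into the saposins that help enzymes reach lipids (chr10:60277627-60302597, plus strand), had 595, 942 and 1304 FPKM. Ctsl, which encodes the cysteine protease cathepsin L, had 476, 763 and 981 FPKM. The ranges of these 3 genes overlapped, and they lay above all samples of every other member, except that in ZT14 replicate 3 Sqstm1 (506 FPKM) was above the lowest value of Ctsl, from the same sample. Sqstm1, which encodes the cargo receptor p62, had 197, 287 and 506 FPKM, and Lamp1, a major glycoprotein of the lysosome membrane, had 191, 243 and 349 FPKM. Their ranges overlapped each other.

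Among the other proteases the medians were 224 FPKM for Ctsb, 111 FPKM for Ctss, 97.7 FPKM for Ctsz and 38.6 FPKM for Ctsk, which is best known from bone-resorbing cells. Ctsa, the serine carboxypeptidase that also stabilises neuraminidase and beta-galactosidase, had a median of 82.4 FPKM and spanned 47.8 to 203 FPKM, with a highest value of 126 FPKM without ZT14 replicate 3. Glycan and lipid hydrolases were less abundant, led by Hexa (the alpha subunit of beta-hexosaminidase) with 55.1, 99.0 and 165 FPKM as lowest, median and highest. Their lowest member was Gla, which encodes alpha-galactosidase A, with 2.34, 12.8 and 52.8 FPKM and a lowest value of 4.32 FPKM without ZT14 replicate 3. Glb1, the beta-galactosidase gene, had 9.01, 14.6 and 23.6 FPKM, and Gusb (beta-glucuronidase), Neu1 (neuraminidase) and Lipa had medians of 18.3, 45.6 and 39.6 FPKM. Gla had the widest scatter of all members, with an SD within time points of 0.96 on the log2(FPKM + 1) scale, against a median SD of 0.30 over the 43 genes and 0.63 over all genes tested. Its highest value (ZT14 replicate 5) and its lowest (ZT14 replicate 3) came from the same time point.

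The cholesterol exporters differed in level: Npc2, which carries cholesterol inside the lysosome, had a median of 116 FPKM, whereas Npc1, the membrane protein that receives it, had the lowest median of all 43 with 8.25, 12.02 and 17.95 FPKM as lowest, median and highest. No sample of Npc1 reached the lowest sample of Npc2. Grn, whose product progranulin is a lysosomal cofactor, had a median of 101 FPKM. Of the membrane proteins, Lamp2 had a median of 175.5 FPKM, Scarb2, the receptor that carries glucocerebrosidase to the lysosome, 49.7 FPKM, and Mcoln1, the calcium channel TRPML1, 42.5 FPKM. Among 6 genes of the proton pump the medians lay within 64.4 to 142 FPKM, highest for the accessory subunit Atp6ap1 with 108, 142 and 232 FPKM as lowest, median and highest. The others were Atp6v1b2, Atp6v1a, Atp6v0d1, Atp6v0a1 and Atp6v1h, with medians of 88.0, 80.6, 73.8, 71.4 and 64.4 FPKM.

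The ATG8 family was led by genes other than the LC3B gene that is most used as an autophagy marker. Map1lc3a (LC3A) had 127, 180 and 337 FPKM as lowest, median and highest, and Gabarapl1 had 97.6, 161 and 332 FPKM. Map1lc3b (LC3B) had 45.3, 63.2 and 72.5 FPKM, and Gabarapl2 had 12.6, 19.0 and 61.9 FPKM. Without ZT14 replicate 3 the highest value was 217 FPKM for Gabarapl1 and 32.0 FPKM for Gabarapl2. Every sample of Map1lc3b lay below every sample of Map1lc3a. Gabarap, the remaining family member with a value here, had a median of 325 FPKM. In the summed FPKM of these 5 genes, Map1lc3b made up a median of 8.10% and Gabarap 42.8%.

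Genes grouped under autophagy start and its lipid kinase, among them Rubcn, were low, except Becn1 (Beclin 1, part of the lipid kinase complex that marks new autophagosomes) with 39.8, 94.8 and 188 FPKM as lowest, median and highest. The catalytic subunit of the same complex, Pik3c3, had 6.83, 12.3 and 18.8 FPKM, and every sample of it was below every sample of Becn1. The lowest Becn1 value was 60.2 FPKM without ZT14 replicate 3. Median levels were 31.4 FPKM for Wipi1, which binds the lipid that the complex makes, 21.3 FPKM for the kinase gene Ulk1 and 15.2 FPKM for Rubcn. The conjugation genes, whose products attach ATG8 proteins to lipid, had medians of 34.8 FPKM for Atg12, 17.01 FPKM for Atg5 and 15.5 FPKM for Atg7. Rab7, the small GTPase of late endosomes that prepares them for fusion, had 108, 165 and 263 FPKM as lowest, median and highest.

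Of the transcription factor genes, Tfeb had 15.8, 40.6 and 233 FPKM as lowest, median and highest, and Tfe3 had 7.34, 14.9 and 36.1 FPKM. The 2 ranges overlapped, and the highest Tfeb value and the lowest Tfe3 value both came from ZT14 replicate 3. Without it the highest Tfeb value was 101 FPKM and the lowest Tfe3 value 11.3 FPKM. That sample was the highest of 30 for 11 members and the lowest for 5, whereas no other sample was the highest for more than 5 or the lowest for more than 6.

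**Figure D1:**
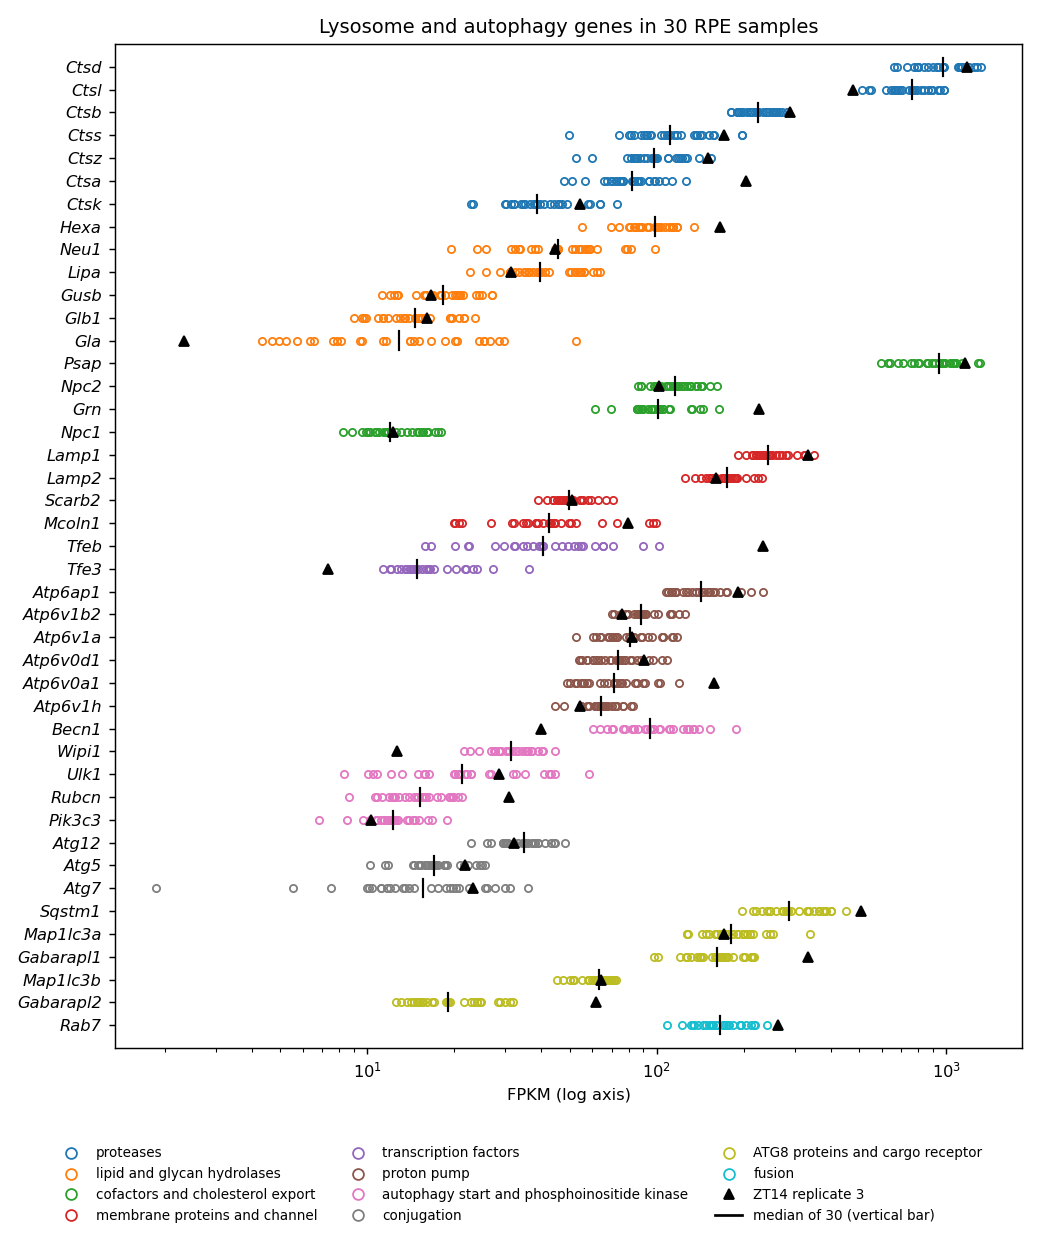
FPKM (log axis) of the 43 genes in 30 samples, grouped by role, with 1 circle per sample, a black triangle for ZT14 replicate 3 and a vertical bar at the median of the 30. Ctsd, Psap and Ctsl have the highest medians, and the triangle is at an end of the range for 16 genes.

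No member passed the test in any comparison between times. With limma on log2(FPKM + 1) and Benjamini-Hochberg adjustment over 16741 genes at a threshold of 0.05, 0 of 43 genes fitted a 24 h cosine, against 0.108% of all genes tested, and 0 of 43 differed among the 6 times in any way, against 0.0717%. For day (ZT2, ZT4 and ZT9) minus night (ZT14 and ZT19) it was 0 of 43, against 0.0299%, and for ZT2 minus the mean of ZT0 and ZT4, the time inside the uptake burst set against its neighbours, 0 of 43, against 0%. At an unadjusted p under 0.05 the members numbered 3, 3, 5 and 2 in these 4 comparisons, against 8.76%, 8.67%, 10.5% and 2.51% of all genes. The tests set each difference against the spread between mice, and the cosine also against differences among times that it misses. A p above the threshold does not show that a level is constant.

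The fitted amplitudes, from the mean to the peak of the cosine, ran from 0.013 for Tfe3 to 0.47 for Tfeb on the log2 scale, with a median of 0.13, against 0.22 over all genes tested. Without ZT14 replicate 3 the Tfeb amplitude was 0.35 and that of Gla, at 0.39, was the highest. The fitted peaks of 25 of the 43 (58.1%) fell between ZT12 and ZT20, against 32.1% over all genes tested, and 3 to 7 fell in each of the other spans of 4 h. The span from ZT12 to ZT20 joins the spans of 4 h that held the most members. The summed RPE markers were also highest at ZT19, with a median of 12719 FPKM, and whether this bears on the peaks was not tested. No member's cosine passed the test, so these peaks are a description of the fits. The smallest p belonged to Rubcn.

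Rubcn, the gene for Rubicon (chr16:32821703-32877766, minus strand), had 10.6, 11.2, 13.5, 16.4 and 17.4 FPKM at ZT0, and 12.3, 12.5, 12.9, 14.5 and 21.3 FPKM at ZT2. At ZT4 its values were 11.9, 12.3, 13.9, 15.6 and 15.9 FPKM, and at ZT9 they were 17.99, 19.1, 19.4, 19.8 and 19.8 FPKM. At ZT14 it had 10.8, 14.8, 19.6, 20.6 and 31.0 FPKM, and at ZT19 8.68, 12.2, 14.9, 15.4 and 16.0 FPKM. The 5 samples of ZT9 lay close together and above all samples of ZT0, ZT4 and ZT19, with 1 sample of ZT2 higher than all of them. The cosine amplitude was 0.28 ± 0.095 (SE, n = 30) with a peak at ZT10.6, which did not pass with limma (adjusted p = 0.486). The amplitude was 0.24 without ZT14 replicate 3, and 0.12 with 5 tissue marker scores as terms. Here and below these are the scores of RPE, surface epithelium, skeletal muscle, stroma and immune markers, without rod and myelin. As the RPE score is among them, a change shared with the RPE markers is also taken out.

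Map1lc3a had the smallest p for any difference among times. Its values were 127, 144, 152, 158 and 198 FPKM at ZT0, 128, 128, 161, 172 and 183 FPKM at ZT2, and 167, 190, 191, 198.6 and 253 FPKM at ZT4. At ZT9 they were 167, 167, 169, 200 and 216 FPKM, at ZT14 148, 171, 177, 206 and 210 FPKM, and at ZT19 200, 209, 238, 245 and 337 FPKM. All samples of ZT19 were above all samples of ZT0 and ZT2, and they overlapped those of ZT4, ZT9 and ZT14. The highest and the lowest time-point mean differed by 0.66 on the log2 scale (limma F test, adjusted p = 0.315).

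The other genes with an unadjusted p under 0.05 in these tests were Sqstm1 and Ctsd for any difference and Ctsk and Tfeb for the cosine. Sqstm1 averaged 270 ± 36.2 FPKM at ZT0, 303 ± 35.7 at ZT2, 350 ± 87.5 at ZT4, 269 ± 79.7 at ZT9, 399 ± 60.7 at ZT14 and 283 ± 48.3 at ZT19 (SD, n = 5 each; limma F test, adjusted p = 0.478). Its 5 samples at ZT14, from 364 to 506 FPKM, were above all samples of ZT0, ZT2 and ZT19. Without ZT14 replicate 3 its mean at ZT14 was 372 ± 10.1 FPKM (SD, n = 4), and its unadjusted limma p was 0.0666, against 0.0206 with that sample.

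Ctsd averaged 820 ± 113 FPKM at ZT0, 849 ± 133 at ZT2, 1081 ± 254 at ZT4, 953 ± 132 at ZT9, 1038 ± 151 at ZT14 and 1152 ± 70.6 at ZT19 (SD, n = 5 each). The times overlapped, except that all samples of ZT19 were above all samples of ZT0 and ZT2. The range of its time-point means was 0.50 on the log2 scale (limma F test, adjusted p = 0.504), and 0.099 with the 5 tissue scores as terms. The summed RPE markers moved the same way, with medians of 7070 FPKM at ZT0 and 12719 FPKM at ZT19, and the surface epithelium markers the other way, with medians of 11093 FPKM at ZT0 and 2989 FPKM at ZT19. In bulk samples fewer cells of a type and less RNA per cell cannot be told apart.

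Ctsk, the collagen-degrading protease, averaged 31.4 ± 8.88 FPKM at ZT0, 38.4 ± 5.75 at ZT2, 48.9 ± 15.2 at ZT4, 49.7 ± 15.3 at ZT9, 45.6 ± 11.4 at ZT14 and 37.8 ± 6.31 at ZT19 (SD, n = 5 each). All times overlapped. Its amplitude was 0.30 ± 0.10 (SE, n = 30; limma, adjusted p = 0.497), and 0.17 with the tissue scores as terms. The stromal markers, summed, had medians of 1204 FPKM at ZT0, 1776 FPKM at ZT9 and 1989 FPKM at ZT19.

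**Figure D2:**
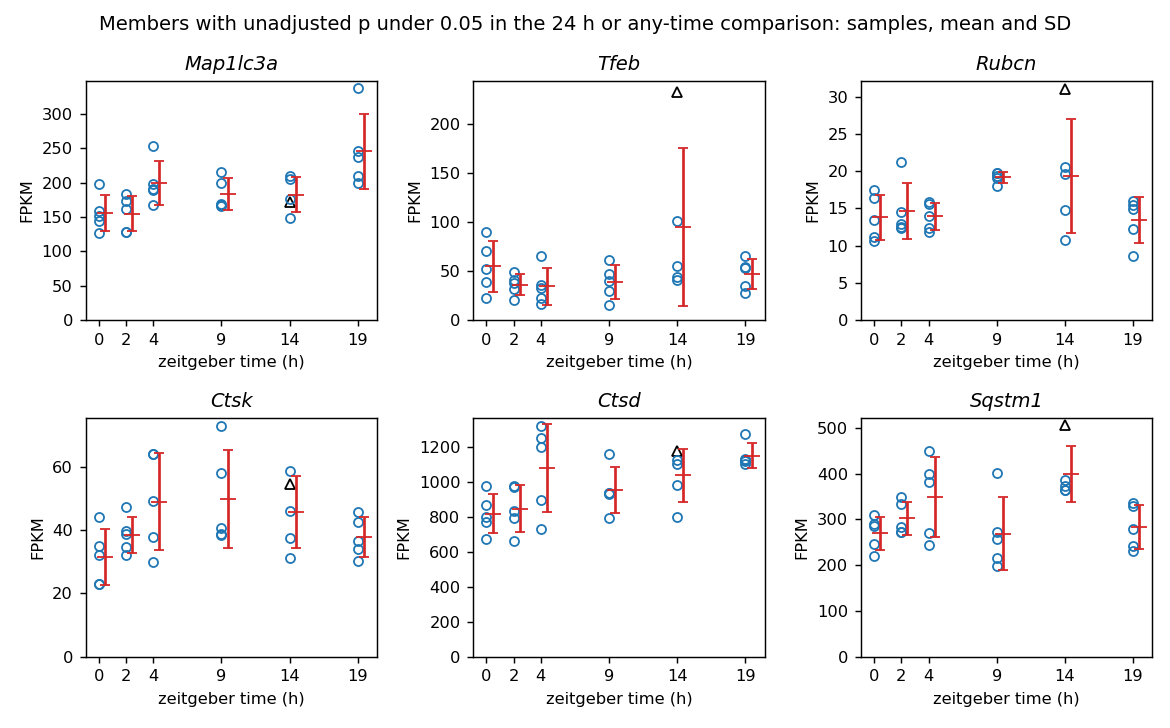
FPKM of 6 genes (Map1lc3a, Tfeb, Rubcn, Ctsk, Ctsd and Sqstm1) against zeitgeber time in h, with 1 circle per mouse, a black triangle for ZT14 replicate 3, and the mean ± SD of 5 mice in red. Rubcn is tight at ZT9, Map1lc3a is highest at ZT19, and the Tfeb samples at ZT14 include 1 value of 233 FPKM.

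Between day and night, 30 of the 43 differences were negative, that is lower by day, with a median of -0.12 on the log2 scale, against 0.024 over all genes tested, of which 46.7% were negative. The summed RPE markers had a median of 9559 FPKM by day and 12461 FPKM by night, and the surface epithelium markers 10170 FPKM by day and 3283 FPKM by night. With 5 tissue marker scores as terms, 24 of the 43 differences were negative, with a median of -0.013. The 95% interval lay within ± 1 for 40 members and within ± 0.5 for 31. All 6 lipid and glycan hydrolases (differences of -0.25 to -0.16) and all 5 ATG8 and cargo receptor genes (-0.30 to -0.12) had a negative difference. In the group of autophagy start and lipid kinase genes, which includes Rubcn, 4 of 5 had a positive one. None of these passed the test.

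Tfeb had the lowest difference. It had 15.8, 35.6 and 65.2 FPKM as lowest, median and highest over 15 day samples, against 27.7, 54.2 and 233 FPKM over 10 night samples. Day and night overlapped, with 1 night sample, ZT14 replicate 3, far above the rest. Without that sample the highest night value was 101 FPKM. The difference was -0.78 ± 0.28 (SE; 95% interval -1.36 to -0.20), which did not pass with limma (adjusted p = 0.353). It was -0.57 without ZT14 replicate 3 and -0.49 with the tissue scores as terms. Tfe3, the related factor, differed by -5.3e-04 (limma, adjusted p = 0.999).

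Map1lc3a had 128, 172 and 253 FPKM over the day samples, against 148, 208 and 337 FPKM over the night samples. Ctsa had 47.8, 76.3 and 126 FPKM over the day samples, against 69.9, 90.4 and 203 FPKM over the night samples. Without ZT14 replicate 3 its highest night value was 113 FPKM. Both genes overlapped between day and night. Their differences were -0.24 ± 0.10 for Map1lc3a and -0.34 ± 0.15 for Ctsa (SE; limma, adjusted p = 0.411 and 0.426). For Ctsa the value was -0.21 without ZT14 replicate 3 and -0.0067 with the tissue scores as terms.

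Gabarapl1 and Ctsl also had an unadjusted p under 0.05. Gabarapl1 had a median of 159 FPKM by day and 179 FPKM by night, a difference of -0.30 ± 0.14 (SE), and -0.20 without ZT14 replicate 3. Ctsl differed the other way, with a median of 770.5 FPKM by day and 664 FPKM by night and a difference of 0.23 ± 0.11 (SE). Their day and night samples overlapped (limma, adjusted p = 0.455 for Gabarapl1 and 0.468 for Ctsl).

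At ZT2, soon after light onset, 24 of 43 members were lower and 19 higher than the mean of ZT0 and ZT4, and the median difference was -0.017. Ctsa had 50.9, 56.6, 67.1, 74.9 and 76.3 FPKM at ZT2, against a lowest, median and highest of 65.8, 87.6 and 126 FPKM in the 10 samples of ZT0 and ZT4. Lipa, the acid lipase that frees cholesterol and fatty acids, had 22.7, 25.7, 33.6, 35.0 and 42.3 FPKM at ZT2, against 28.8, 44.8 and 60.3 FPKM. Both genes overlapped with their neighbours in time.

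The Ctsa and Lipa differences were both -0.43 ± 0.20 (SE), and Mcoln1 had the highest of the 43 at 0.60 ± 0.31 (SE), with limma adjusted p = 1 for all 3. Mcoln1 had 38.4, 44.1, 64.9, 72.7 and 94.1 FPKM at ZT2, against a lowest, median and highest of 19.9, 40.7 and 99.5 FPKM at ZT0 and ZT4. The highest Mcoln1 value of all was at ZT0, so that the groups overlapped. For 39 of the members the 95% interval lay within ± 1, and for 25 within ± 0.5.

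**Figure D3:**
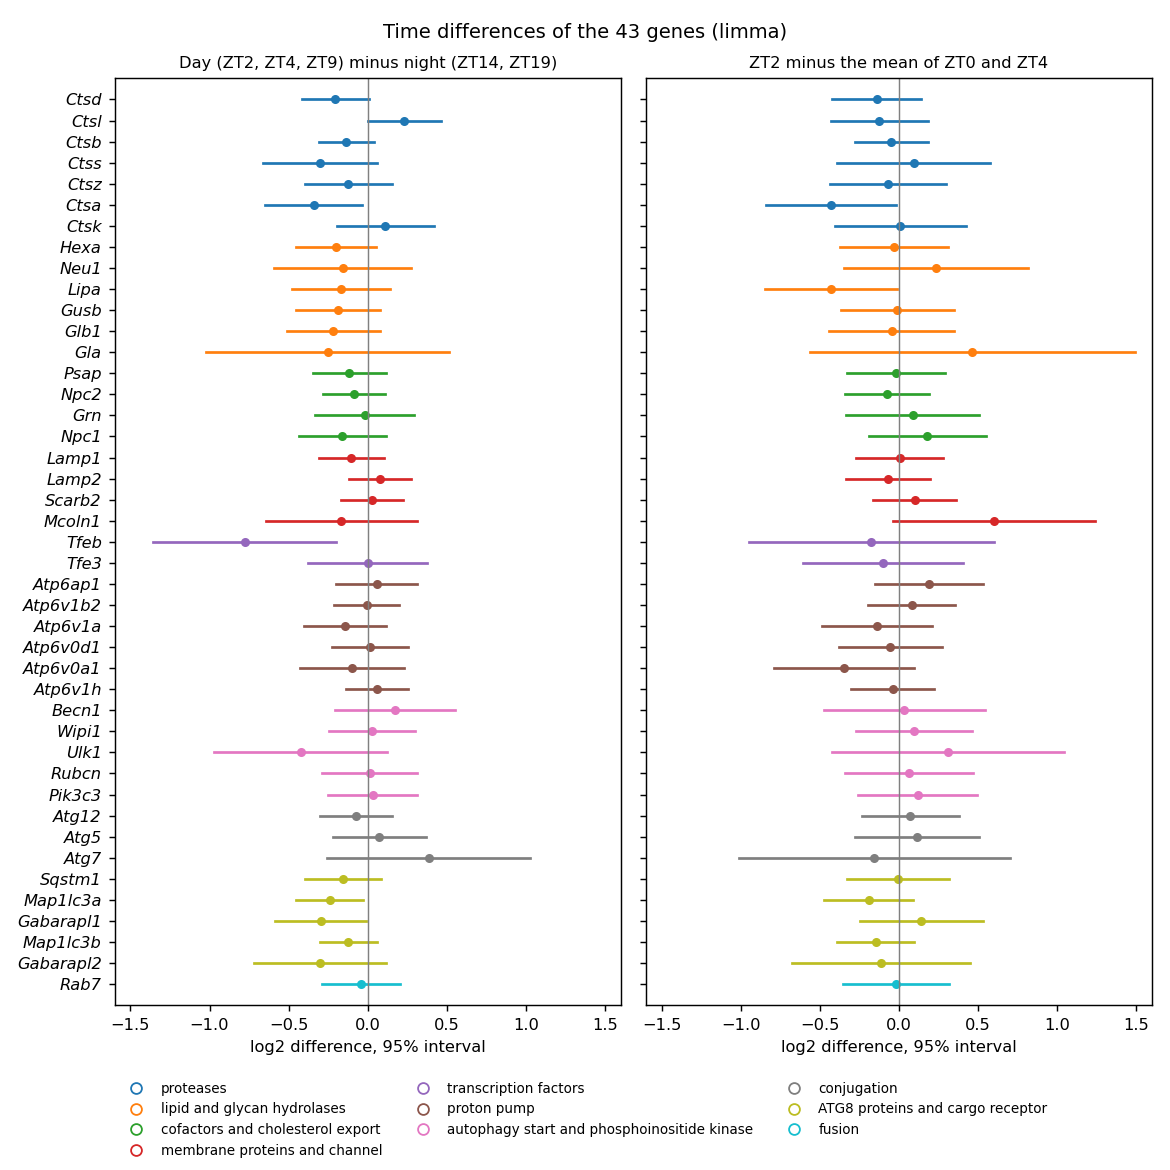
Log2 difference with its 95% interval for each of the 43 genes, as day minus night on the left and ZT2 minus the mean of ZT0 and ZT4 on the right, coloured by role. On the left the Tfeb interval lies lowest, from -1.36 to -0.20, and no gene passed after adjustment in either panel.

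A wider list of 110 further genes of the same pathway was read in the same fits, with 106 of them tested. It held other lysosomal enzymes, membrane proteins and pump subunits, other autophagy genes, and nutrient sensors. In the 4 time comparisons 0 of the 106 passed. At an unadjusted p under 0.05 there were 8 for the cosine, 4 for any difference, 6 for day minus night and 2 for ZT2. These are 7.55%, 3.77%, 5.66% and 1.89% of the 106, below the shares of all genes tested given above. The smallest p for the cosine was that of Bnip3, a receptor for mitochondria in autophagy, with an amplitude of 0.51 ± 0.13 (SE; limma, adjusted p = 0.273).

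Because transcripts of other eye tissues varied between the mice of a time point, each gene was also set against the tissue marker scores of its sample. A score is the mean log2(FPKM + 1) of a marker list, and the slope is the log2 change of a gene per log2 unit of the score, with the 6 time-point means held as terms (limma, all 30 samples). Psap, Ctsd, Lamp2 and Ctsb rose with the RPE markers: 4 of 43 members had a slope above 0 that passed, and 0 below, against 1.76% and 0.914% of all genes tested. The median slope over the 43 was 0.27, against -0.016 over all genes tested, and 34 of 43 were positive.

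Psap had the smallest p of these, with a slope of 0.66 ± 0.085 (SE; limma, adjusted p = 1.53e-05). It had 1289 FPKM in the sample with the highest RPE score and 595 FPKM in the one with the lowest, both at ZT4. Ctsd had a slope of 0.54 ± 0.090 (SE; limma, adjusted p = 5.24e-04), with 1251 FPKM and 730 FPKM in the same samples. Without the 2 samples of most distant RPE score its adjusted p was 0.105 and its slope 0.56. Both genes were higher in the sample richer in RPE transcripts.

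Lamp2, whose product lines the lysosome and is needed for fusion with autophagosomes, had a slope of 0.41 ± 0.11, and Ctsb, the cysteine protease cathepsin B, 0.34 ± 0.092 (SE; limma, adjusted p = 0.031 and 0.0413). Without ZT4 replicate 1, the sample of lowest RPE score, the adjusted p was 0.43 for Lamp2 and 0.382 for Ctsb, and the slopes were 0.33 and 0.32. The adjusted p was above 0.05 without any one of 4 samples for Lamp2 and of 15 for Ctsb. Without ZT14 replicate 3, 7 members passed, the added ones being Ctsz, Hexa and Atp6v1a, against 2.32% of all genes tested in that fit with a positive slope. All 7 proteases and all 6 glycan and lipid hydrolases had a positive slope, whereas Tfeb and Tfe3 had slopes of -0.34 and -0.35 that did not pass.

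The scores of surface epithelium and RPE ran against each other within time points, with a Pearson correlation of -0.647 over the 30 samples, given as a description. In the slopes on surface epithelium 8 of 43 members passed with a slope below 0 and 0 above, against 2.25% and 4.87% of all genes tested. They were Ctss, Ctsz, Ctsd, Ctsb, Psap, Hexa, Lamp1 and Gabarapl1, with slopes of -0.39 for Ctss to -0.14 for Ctsb.

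Ctss, the cathepsin of antigen-presenting cells, had the steepest of these slopes, -0.39 ± 0.078 (SE; limma, adjusted p = 0.00142), with 92.3 FPKM in the sample of highest surface epithelium score and 198 FPKM in that of lowest. Ctsz had 52.5 FPKM and 119 FPKM in the same samples and a slope of -0.29 ± 0.061 (SE; limma, adjusted p = 0.0027). Its lowest value of all 30 was in the sample with the most surface epithelium. Ctsb and Lamp1, at adjusted p of 0.044 and 0.0435, were past the threshold by little, and the adjusted p was above 0.05 without any one of 18 samples for Ctsb and of 17 for Lamp1. For Psap it was 0.0676 without ZT4 replicate 1.

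On the immune and stromal scores single cathepsins passed, and most members also had a positive slope. The median slope over the 43 was 0.14 on the immune score, with 33 positive, against 0.014 over all genes tested. On the stromal score it was 0.19, with 30 positive, against -0.037. Ctss rose with the immune score, by 0.78 ± 0.16 per unit (SE; limma, adjusted p = 0.0147), the 1 member to pass in either direction, against 0.478% of all genes tested with a positive and 0.454% with a negative slope. It had 198 FPKM in the sample of highest immune score, ZT19 replicate 3, and 49.8 FPKM in that of lowest, ZT9 replicate 2, and these were the highest and lowest of its 30 values. Without ZT14 replicate 3, Lamp1, Ctsz and Ctsd also passed, against 1.24% of all genes with a positive slope in that fit. Ctss did not pass without ZT9 replicate 1 (adjusted p = 0.152, slope 0.63) or without ZT9 replicate 2 (0.0719, slope 0.70). Ctsk rose with the stromal score by 0.88 ± 0.16 (SE; limma, adjusted p = 0.0126), the 1 member to pass, against 0.496% with a positive and 0.251% with a negative slope. It had 72.9 FPKM at the highest score and 22.9 FPKM at the lowest, again the ends of its range, and its adjusted p stayed at 0.0387 or below without any 1 sample.

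In the rod score 1 member (2.33%) passed, with a positive slope, against 3.91% of all genes tested with a positive and 0.311% with a negative slope. The share of members was thus no higher than that of all genes with a positive slope. The member was Atp6v1b2, a widely expressed form of the B subunit of the pump, with a slope of 0.064 ± 0.017 (SE; limma, adjusted p = 0.0302). It had 112 FPKM in the sample with the highest rod score and 78.5 FPKM in that with the lowest. Its adjusted p was above 0.05 without any one of 7 samples, up to 0.0995, and 0.272 without the 2 of most distant rod score. With myelin 1 member (2.33%) passed, against 1.58% with a positive and 0.293% with a negative slope: Lamp1, with a slope of 0.088 ± 0.021 (SE; limma, adjusted p = 0.0224). It had 325 FPKM and 213 FPKM in the samples of highest and lowest myelin score, and its adjusted p was above 0.05 without any one of 3 samples, up to 0.0685. With skeletal muscle 0 of 43 passed, against 1.2% with a positive and 0.382% with a negative slope, and 6 members had an unadjusted p under 0.05, against 16.5% of all genes.

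**Figure D4:**
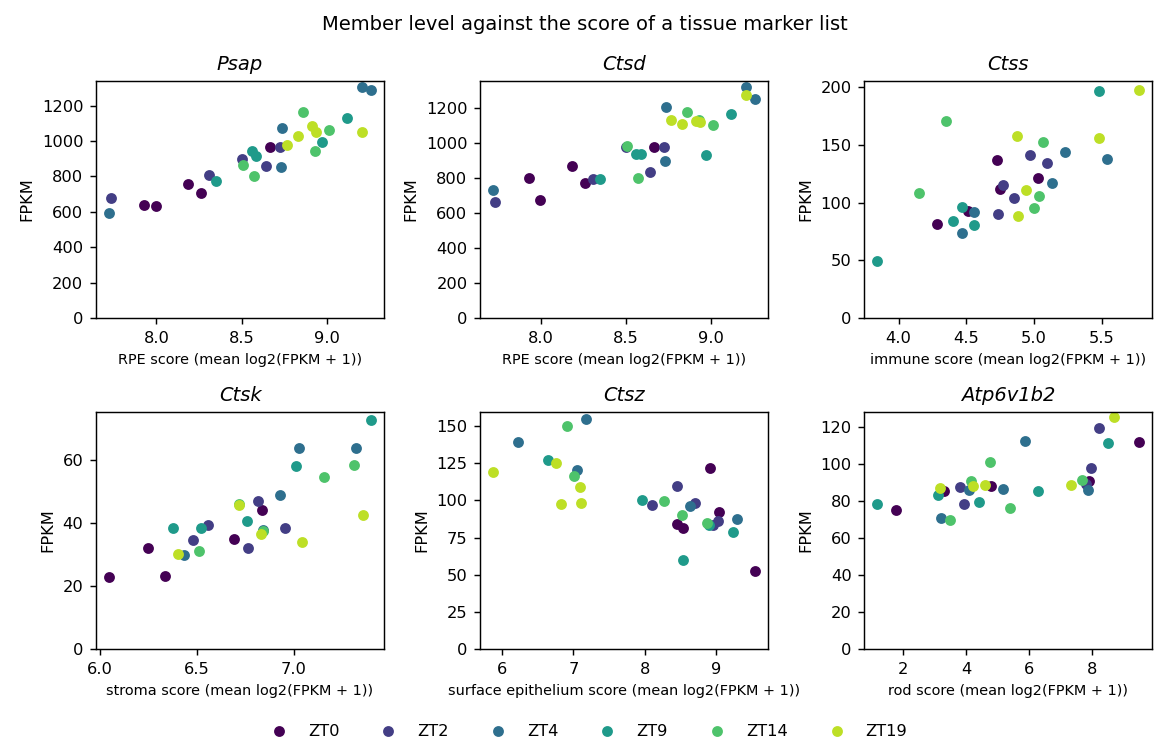
FPKM of 6 genes against the score (mean log2(FPKM + 1)) of a tissue marker list, with 1 point per sample coloured by zeitgeber time. Psap and Ctsd rise with the RPE score, Ctss with the immune score and Ctsk with the stromal score, Ctsz falls with the surface epithelium score, and Atp6v1b2 rises slightly with the rod score.

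The scores are not independent of each other, and with all 7 in a single fit 0 of these 16 slopes passed. Calls over all genes tested also fell on every score in that fit, to 0 for immune and stroma, as listed in the closing section on processing. The loss of calls is therefore not particular to the members. In that fit the slope was 0.56 for Psap with RPE (adjusted p = 0.408), 0.43 for Ctsd with RPE (0.799), 0.66 for Ctss with the immune score (0.368) and 1.01 for Ctsk with stroma (0.999), all by limma and all in the direction of the single-score slope, whereas the Lamp2 slope on RPE was -0.014 (0.996). On surface epithelium the limma adjusted p with all 7 scores ran from 0.644 for Gabarapl1 to 0.997 for Ctsz. Over all alternatives these slopes stayed negative. Some alternatives gave steeper slopes than the single-score fit, as for Gabarapl1 at -0.36 against -0.27, and others gave shallower ones. They came as near zero as -0.0038 for Ctsz, -0.037 for Ctsd, -0.043 for Ctsb and -0.052 for Psap, and -0.12 to -0.20 for the others. Which tissue each transcript comes from was not measured.

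**Figure D5:**
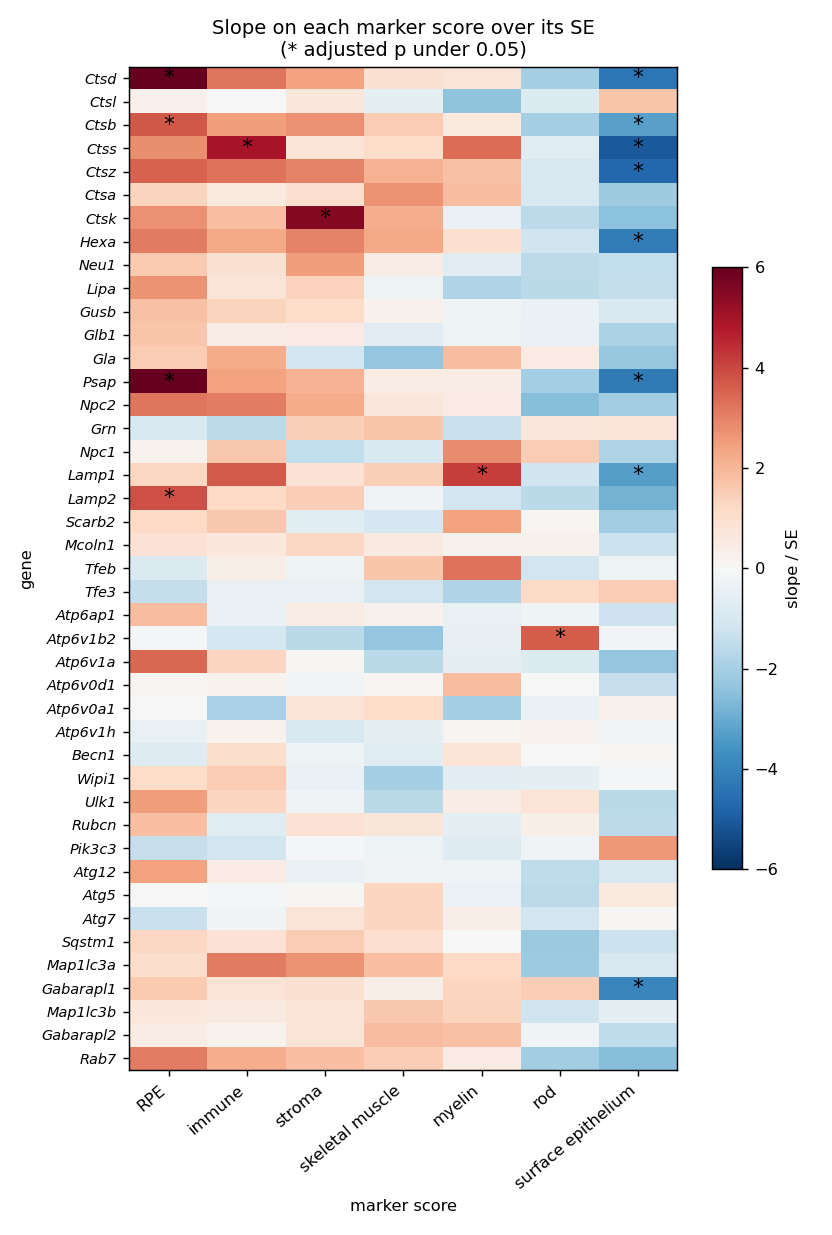
Slope over its SE for the 43 genes (down) on 7 tissue marker scores (across), in red for positive and blue for negative, with an asterisk where the limma adjusted p was under 0.05. The RPE column holds 4 asterisks and the surface epithelium column 8, in blue.

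In the wider list, 5 of 106 genes (4.72%) passed with a positive RPE slope, against 1.76% of all genes tested, led by Rragd, a GTPase that signals nutrient status to mTORC1, with a slope of 0.97 ± 0.23 (SE; limma, adjusted p = 0.0173). Ids and Tpp1, a glycan sulfatase and a protease of the lysosome, had slopes of 0.57 ± 0.14 and 0.66 ± 0.17 (SE; limma, adjusted p = 0.0189 and 0.029). With surface epithelium 4 (3.77%) passed with a negative slope and 0 with a positive one, against 2.25% and 4.87%, among them Cd63, a membrane protein of late endosomes, at -0.23 ± 0.050 (SE; limma, adjusted p = 0.00304). With rod 3 (2.83%) passed, all with a positive slope, against 3.91%: Laptm4b, Atp6v0e2 and Atp6v1g2. With skeletal muscle 1 passed, Atp6v1g2, with a negative slope, against 0.382%, and with the immune, stroma and myelin scores 0 passed.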

How the data were processed

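Per the labels' protocols, RNA was extracted with a micro-scale kit and read as single reads on a NextSeq instrument. The submitters' processing notes name STAR, Cufflinks and DESeq2 and the build mm10, with no versions or roles, and how reads shared between genes were counted is not given in the sources used here. The authors deposited FPKM values, written with decimal commas, in 1 table for all samples; FPKM are not counts, so no count test was run. Each column carried the title of 1 sample. GENCODE M21 (GRCm38, the assembly of mm10) gave the gene positions.

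Here log2(FPKM + 1) was computed for genes with at least 1 FPKM in at least 5 samples. The moderated tests of limma (version 3.58.1, under R version 4.3.3) used a variance trend and were two-sided, with Benjamini-Hochberg adjustment over all genes tested. Comparisons were a 24 h cosine, any difference among times, day minus night, ZT2 minus ZT0 and ZT4, and slopes on 7 marker scores. The fits were tested on simulated data. A pseudocount of 0.1, no filter, no variance trend, rescaling by median ratios, tissue scores and eye side as terms, no time terms, all scores in 1 fit, and leaving out each sample or the 2 of most distant score were tried. The members, the lists and the rule for named genes (role-group leaders, extremes of level, smallest p per comparison, the ATG8 genes, Tfeb, Tfe3 and Rubcn) were chosen with earlier results of these data known. Reads shared with paralogs or with overlapping genes on either strand cannot be told apart here.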

Additional observations from a re-analysis of the deposited data

Results flagged for a closer look

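Within a time point of 5 mice, 1 sample stood far from the other 4 in 15 of 258 groups of gene and time (5.81%), over 13 members, by a gap above 0.71 of the group's range; chance gives about 1 in 20. In ZT14 replicate 3, the sample with the fewest genes above 0, Ctsa had 203 FPKM (the others 69.9 to 107) and Sqstm1 506 FPKM (the others 364 to 386). In ZT19, Ctsd had 1277 FPKM in replicate 3 (the others 1106 to 1130), Atp6v1b2 126 FPKM in replicate 1 (87.2 to 89.1), Atp6ap1 159 FPKM in replicate 4 (112 to 117), and Map1lc3b its low value of 51.8 FPKM in replicate 4 (67.2 to 72.5).

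In ZT9, Ctsl had 981 FPKM in replicate 5, Scarb2 59.1 FPKM in replicate 1 and Atp6v1b2 111 FPKM in replicate 2, each above the other 4. In ZT2, the high values were 21.9 FPKM for Tfe3, 16.2 FPKM for Pik3c3, 21.3 FPKM for Rubcn and 219 FPKM for Rab7, each in a different sample. In ZT0, Lamp2 was low at 135 FPKM in replicate 5, against 179 to 190 FPKM in the others, and Atp6ap1 high at 174 FPKM in replicate 3.

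Both Atp6v1b2 values came from the sample with the highest rod score of its time point, 8.70 in ZT19 replicate 1 and 8.50 in ZT9 replicate 2 (mean log2(FPKM + 1) of the rod markers). Both samples are in the fit that gave the Atp6v1b2 slope on the rod score, so this is not a separate observation. The part of rod transcripts in them was not tested.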

How the results depend on the processing

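No member passed in any of the 4 time comparisons under any alternative or without any 1 sample; over all genes, ZT2 gave 1 call with no filter, against 0. The numbers of members that passed on the scores moved. For RPE (4) they were 2 with a pseudocount of 0.1, 2 without a variance trend, 1 without the 2 samples of most distant score, 15 without time terms and 0 with all 7 scores in 1 fit, an alternative chosen after seeing the data. For surface epithelium (8) they were 13 without time terms and 0 with all 7 scores. For rod (1), 0 without a variance trend, 0 without the 2 distant samples and 0 with all 7. For immune (1), 0 with a pseudocount of 0.1, 2 with rescaling, 0 without the distant samples, 6 without time terms and 0 with all 7. For stroma (1), 3 without time terms and 0 with all 7. For myelin (1), 0 without a variance trend and 0 with all 7, and for muscle (0), 1 without time terms. The Lamp2 slope on RPE turned to -0.014 with all 7 scores. Leaving out 1 sample gave 2 to 7 members for RPE, 0 to 1 for rod, 0 to 4 for immune and 0 to 2 for myelin, and over all genes tested 89 to 637 calls for RPE (447 in the full set), 29 to 399 for immune (156) and 19 to 383 for stroma (125). With all 7 scores the calls over all genes were 5 for RPE, 183 for rod (706), 70 for surface epithelium (1192), 41 for muscle (265), 58 for myelin (313) and 0 for immune and stroma; without time terms they were 1491 for RPE, 2213 for surface epithelium, 589 for muscle, 514 for immune and 407 for stroma. Without the 2 distant samples they were 43 for RPE, 460 for rod, 118 for muscle and 20 for immune. A pseudocount of 0.1 gave 124 for RPE and 52 for immune, and no filter 90 for immune and 59 for stroma. The cause of these changes was not tested.

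No paired analysis was possible because each sample came from a different mouse. The labels give no replicate numbers, and those used here only name the mice. Depth is known only as an estimate, and no interval from counts was set.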
